A study of Mus musculus with 15 samples.

Results

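The glucocorticoid receptor gene Nr3c1 and genes of its signalling were followed in brown fat of mice given an FGF21 receptor agonist. The members were 7 genes fixed by name: the receptor Nr3c1, the hormone-activating enzyme gene Hsd11b1, and the receptor targets Fkbp5, Tsc22d3, Zbtb16, Sgk1 and Errfi1. For each gene the probe sets that carry its symbol alone in the platform annotation were ranked by their mean in the 15 samples, and the brightest was read. All 7 were found among the 18194 genes measured, and all 7 were among the 13174 genes bright enough to be tested.

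The study measured total RNA of interscapular brown adipose tissue on expression arrays, with 5 biological replicates in each of 3 groups. All animals were wild-type adult male C57BL/6N mice fed a high-fat diet. The FGF21 group (animals 36 to 40) received human FGF21 in b.i.d. injections of 1 mg/kg each, a daily total of 2 mg/kg, over 5 days. The aFGFR1/KLB group (animals 41 to 45) got bFKB1, an antibody that activates the complex of FGF receptor 1 with beta-Klotho, as a single intraperitoneal dose of 10 mg/kg, and its tissue was taken at day 5. The control group (animals 31 to 35) shared strain, sex and diet, and its labels name no injected substance. Dose and schedule therefore differed between the agonists, and both are compared with the same 5 controls. The tissue's defining genes were bright in each group. Ucp1, the uncoupling protein of brown adipocytes, had a log2 intensity of 14.59 ± 0.06 in controls, 14.69 ± 0.08 with FGF21 and 14.78 ± 0.04 with the antibody (SD, n = 5 each), and its mean over all samples ranked 8 of 18194 genes. Cidea and Adipoq ranked 18 and 41.

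The glucocorticoid receptor is a nuclear receptor that waits in the cytoplasm in a complex with the chaperone HSP90 and its partners. When corticosterone, the main glucocorticoid of mice, binds to it, the receptor enters the nucleus and binds DNA, often at a palindrome of AGAACA and TGTTCT arms around a spacer. How much hormone reaches the receptor in fat depends on the blood level and on the enzyme 11beta-HSD1, the product of Hsd11b1, which regenerates corticosterone from its inactive keto form inside the cell. In brown fat of rodents, glucocorticoids are known to promote lipid storage and to restrain thermogenic gene expression. FGF21 is a liver hormone known to act on the brain as well as on fat, and to raise circulating corticosterone in mice. Corticosterone itself was not measured here.

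The promoters of the members were read from RefSeq windows (GRCm38.p6), each holding 250 bases before and 50 bases after an annotated start. Windows were read for 5 of the 7 members, 13 windows in all. The search for member windows left out 1 chromosome, which the count over all windows did not. No window of Nr3c1 or Zbtb16 was read, and both are named only. Both strands were searched for the palindrome, read as AGAACA, 3 bases of any kind and TGTTCT, and for its single arm AGAACA, which each palindrome also contains. The palindrome lay in 3 of 32851 windows of all genes (0.00913%), and 1 of these belongs to Sgk1, the serum- and glucocorticoid-regulated kinase gene. The window of Sgk1 before its start at position 21993890 of chromosome 10 is shown because it is the only member window with the whole palindrome, given in capitals together with a separate copy of the TGTTCT arm:

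Sgk1 promoter, chr10:21993640-21993889, plus strand: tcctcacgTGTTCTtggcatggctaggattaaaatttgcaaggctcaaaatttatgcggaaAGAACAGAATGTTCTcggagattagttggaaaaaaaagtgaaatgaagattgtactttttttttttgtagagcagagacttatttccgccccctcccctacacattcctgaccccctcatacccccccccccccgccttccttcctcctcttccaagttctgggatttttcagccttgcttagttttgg

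The palindrome covers positions 21993701 to 21993715, or bases 189 to 175 before the start. The single arm was common: 19% of all windows held it, and so did 4 of the 13 member windows. The other 3 are shown for comparison, cut to the bases around the arm, with the arm in capitals as it reads on the gene's own strand:

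Sgk1 start at 21882184, chr10:21881969-21882014, plus strand: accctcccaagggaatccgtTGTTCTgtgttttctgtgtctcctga
Sgk1 start at 21992223, chr10:21992190-21992222, plus strand: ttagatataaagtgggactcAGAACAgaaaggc
Tsc22d3 start at 140600522, chrX:140600682-140600727, minus strand: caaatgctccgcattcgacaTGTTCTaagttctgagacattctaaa

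The windows of Hsd11b1, Fkbp5 and Errfi1 held no arm within these 300 bases, which says nothing of sites elsewhere. A match of letters is not a measured binding site.

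Some arrays carried more RNA of other cells, and these values stand beside the results below. The summed intensity of 17 macrophage markers was 8586 to 71878 in controls (median 18720), 11642 to 85361 with FGF21 (median 29500) and 14847 to 27518 with the antibody (median 19162). The highest control was animal 34 and the highest FGF21 sample animal 36, and both also led their groups in the sum of 12 fibroblast markers (77869 and 67277). The sum of 12 skeletal muscle markers was 9479 to 34422 in controls, 382 to 117052 with FGF21 (highest in animal 36) and 433 to 124643 with the antibody (highest in animal 45). The sum of 12 endothelial markers was 4393 to 5633 in controls, 5060 to 7370 with FGF21 and 5464 to 6362 with the antibody. In whole tissue, a change in the number of cells of a type and a change in RNA per cell cannot be told apart.

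Of the 7 members, 2 rose with FGF21 (Sgk1 and Nr3c1) and 1 rose with the antibody (Sgk1), by limma with Benjamini-Hochberg adjustment over all 13174 genes and a threshold of 0.05. Among all genes tested, 6.32% passed in the FGF21 comparison (2.64% upward) and 5.18% in the antibody comparison (2.69% upward). With the antibody 2 members, Sgk1 and Nr3c1, had every treated sample above every control, as had 4.44% of all genes. The mean was higher than in controls for 7 of 7 members with FGF21, with a median log2 difference of 0.30, and for 5 of 7 with the antibody, with a median of 0.27, where centring the arrays on ribosomal protein genes turned Hsd11b1 and Zbtb16 to 0.068 and 0.056. Over all genes the medians were -0.02 and -0.02, and 45.5% and 45.1% of genes had the higher mean in the treated group. That centring moved the median of all genes with the antibody from -0.02 to 0.08. Between the antibody and FGF21, 0 of 7 members passed, where 0.372% of all genes did. At an unadjusted p under 0.05, limma marked 1 member in that comparison, Fkbp5, where 13.5% of all genes were marked, so the member count is near the background. The shares of all genes at an unadjusted p under 0.05 were 20.4% with FGF21 and 19.4% with the antibody, and the unadjusted counts of the lists below are to be read against these shares. Adjusted counts of the lists are to be read against 6.32%, 5.18% and, between the agonists, 0.372%.

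**Figure D1:**
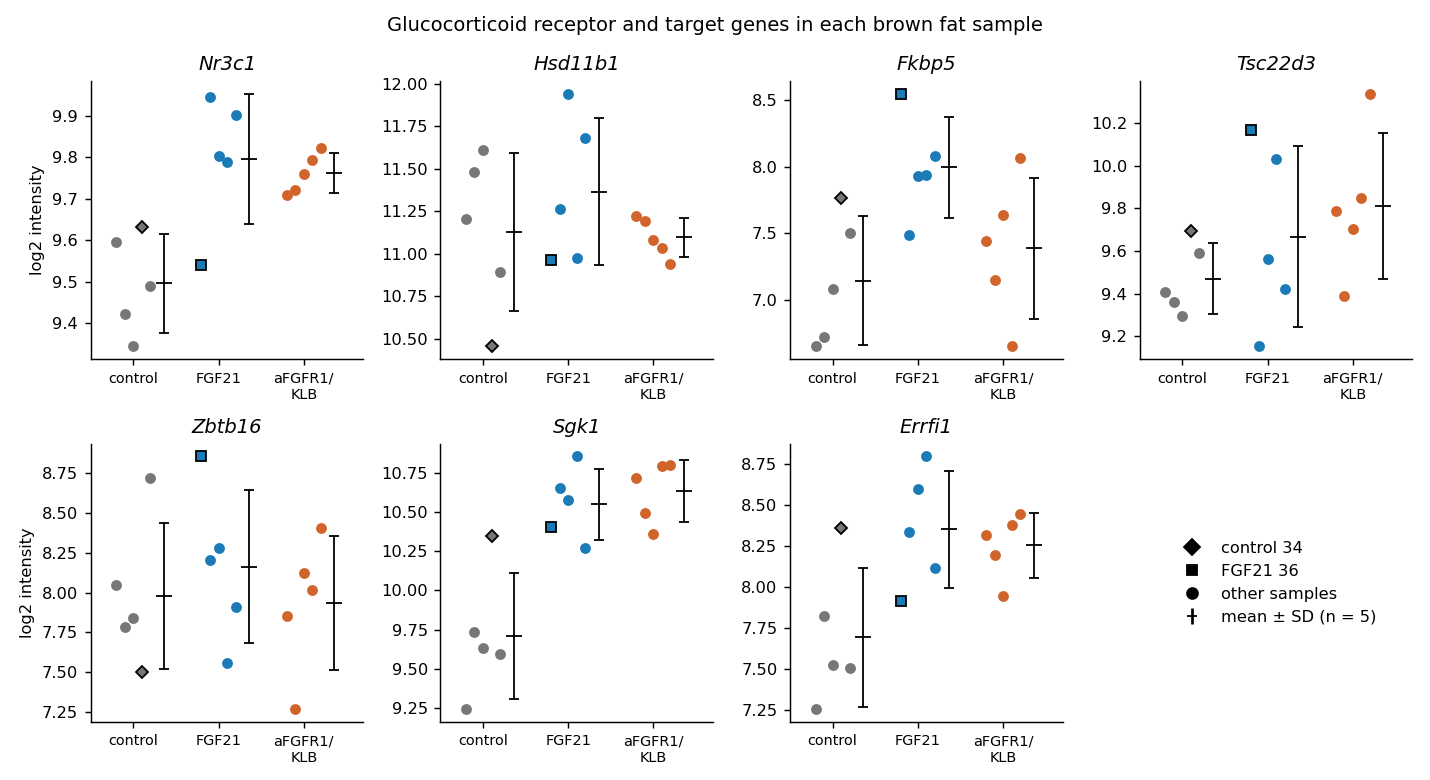
Log2 intensity of each of the 7 genes in each of the 15 samples, in a panel per gene, with a point per animal (a diamond for control 34, a square for FGF21 36) and beside it the group mean with an error bar of 1 SD (n = 5). For Sgk1 every antibody sample lies above every control, while for Hsd11b1, Tsc22d3 and Zbtb16 the groups overlap.

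On the probe set read, the receptor gene Nr3c1 was modestly higher in both treated groups. Its log2 intensity in control animals 31 to 35 was 9.60, 9.42, 9.34, 9.63 and 9.49. In FGF21 animals 36 to 40 it was 9.54, 9.95, 9.80, 9.79 and 9.90. In antibody animals 41 to 45 it was 9.71, 9.72, 9.76, 9.79 and 9.82. All 5 antibody samples and 4 of the 5 FGF21 samples lay above every control, and FGF21 animal 36 lay within the control range. The FGF21 mean was 1.23-fold that of controls, a log2 difference of 0.30 ± 0.08 (SE; 95% CI 0.13 to 0.47; limma adjusted p = 0.0326, n = 5 per group). The antibody mean differed by 0.27 ± 0.08 (CI 0.10 to 0.43), with an adjusted p of 0.0621 that missed the threshold. Antibody and FGF21 differed by -0.03 (CI -0.20 to 0.13; limma adjusted p = 0.863). Nr3c1 varied little within groups, with an SD at the 25.3 percentile of all genes tested, whereas the other members lay between the 86.0 and 93.6 percentiles.

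Nr3c1 followed the endothelial marker mean over the 15 samples (Pearson r 0.72, Spearman rho 0.68, 0.50 after group means were removed), and the part of endothelial RNA in its difference was not tested. The Nr3c1 call with FGF21 depended on the scaling, on single arrays and on the probe set. It ended with quantile normalisation repeated (limma adjusted p = 0.0567), with arrays centred on their median (0.1) or on ribosomal protein genes (0.293), and with only the 10 samples compared (0.12). It also ended when any one of control 32, 33 or 35 or FGF21 37, 38, 39 or 40 was left out (limma adjusted p 0.0587 to 0.089). The antibody difference passed without control 34 (limma adjusted p = 0.0309, where 8.65% of all genes passed) or without FGF21 36 (0.02, where 7.27% passed). Of the 5 other Nr3c1 probe sets, 4 were bright enough to test, and their FGF21 differences of -0.07, 0.18, 0.21 and 0.30 did not pass (the lowest adjusted p over all probe sets was 0.0763). With the antibody the same 4 differed by -0.08, 0.12, -0.08 and 0.31 and did not pass (lowest limma adjusted p 0.074).

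Hsd11b1 showed no change that exceeded the spread between animals. Controls ranged from 10.46 to 11.61, FGF21 samples from 10.97 to 11.94 and antibody samples from 10.94 to 11.22, so the groups overlapped throughout. The lowest value of all was in control 34. The difference was 0.24 ± 0.22 with FGF21 (limma adjusted p = 0.606) and -0.03 ± 0.22 with the antibody (0.956). The SD within the antibody group was 0.11, against 0.47 in controls and 0.43 with FGF21. That difference in spread was not tested.

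Of 8 other genes that make, clear or carry corticosterone, 5 were bright enough to test, and 0 passed in any comparison by limma. At an unadjusted p under 0.05 the counts were 1, 0 and 1 for FGF21, the antibody and the antibody against FGF21. H6pd, which supplies 11beta-HSD1 with its cofactor, differed by 0.34 with FGF21 (limma adjusted p = 0.114) and by 0.05 with the antibody. Hsd11b2, whose enzyme inactivates corticosterone, differed by -0.08 and -0.08.

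**Figure D2:**
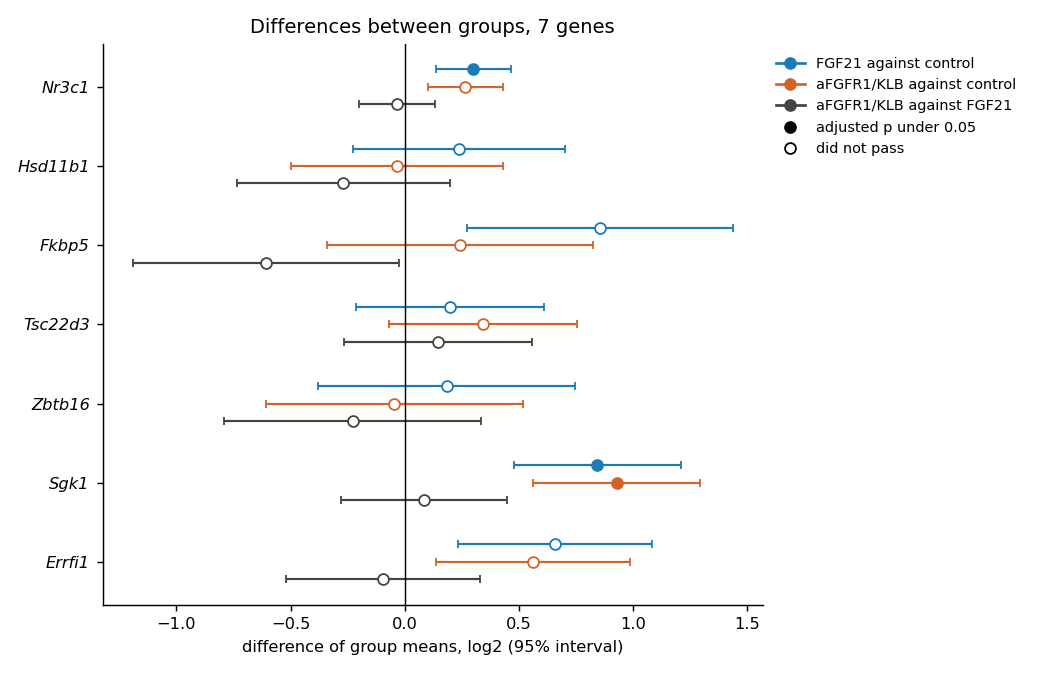
Log2 difference of group means for each of the 7 genes in the 3 comparisons, with 95% confidence intervals from limma (12 residual degrees of freedom, n = 5 per group), filled where the adjusted p was under 0.05, and a vertical line at no difference. The intervals of Nr3c1, Sgk1 and Errfi1 lie above 0 in both comparisons with control, but only Sgk1 in both and Nr3c1 with FGF21 passed after adjustment.

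Sgk1 encodes a kinase that acts on ion channels, transporters and FOXO factors, and it is a classical rapid target of glucocorticoids. It had the firmest change of the members. In control animals 31 to 35 its log2 intensity was 9.24, 9.73, 9.63, 10.35 and 9.59. In FGF21 animals 36 to 40 it was 10.40, 10.65, 10.58, 10.86 and 10.27. In antibody animals 41 to 45 it was 10.72, 10.50, 10.36, 10.80 and 10.80. The antibody samples all lay above every control, as did 4 of 5 FGF21 samples, and control 34 was the lone control above FGF21 animal 40.

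Sgk1 rose 1.79-fold with FGF21, a log2 difference of 0.84 ± 0.17 (SE; CI 0.48 to 1.21; limma adjusted p = 0.00945, n = 5 per group). It rose 1.90-fold with the antibody, by 0.93 ± 0.17 (CI 0.56 to 1.29; adjusted p = 0.00748). The agonists differed by 0.08 (CI -0.28 to 0.45; limma adjusted p = 0.847), an interval that leaves room for a difference of either sign. Both calls held in each of 15 fits that left out 1 animal, with adjusted p up to 0.0282 for FGF21 and 0.0239 for the antibody. They also held with the macrophage and muscle marker means in the model, at 0.77 (adjusted p = 0.0168) and 0.91 (0.00448). Over the 15 samples Sgk1 and the mean of the endothelial markers had a Pearson r of 0.81 and a Spearman rho of 0.85, and r was 0.71 once group means were removed. The part of endothelial RNA in the Sgk1 result was not tested.

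The kinase's relatives and partners were read from a list of 11 genes, all tested. Of these, 4 rose and 1 fell with FGF21 and 3 rose with the antibody, where 6.32% and 5.18% of all genes passed. The list's median difference was 0.14 with FGF21 and 0.05 with the antibody. Sgk2, a paralog of Sgk1 with a closely related kinase domain, had the largest difference of the list: its log2 intensity was 5.72 to 7.06 in controls, 8.11 to 9.59 with FGF21 and 8.28 to 9.50 with the antibody, with no overlap of treated and control samples. It rose by 2.42 ± 0.32 with FGF21 (limma adjusted p = 0.000707) and by 2.84 ± 0.32 with the antibody (0.000401). Sgk3, the remaining paralog, differed by -0.14 and -0.18 and did not pass.

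Pdpk1, the kinase that activates SGK enzymes, rose by 0.33 with FGF21 (limma adjusted p = 0.0204) and by 0.39 with the antibody (0.0113), while its other testable probe set did not pass, at 0.22 and 0.21. Without control 33 or FGF21 40 the FGF21 value missed the threshold (up to 0.0536). Nedd4l, the ubiquitin ligase that SGK1 phosphorylates and inhibits, rose by 0.74 with FGF21 (0.00492) and differed by 0.37 with the antibody (0.133), where 2 of its 3 other testable probe sets passed, at 0.65 (0.00608) and 0.68 (0.0446). Ndrg2, a phosphorylation target of SGK1, passed at 0.37 (0.0412) and 0.38 (0.0422), but each call ended in 12 of the 15 fits that left out 1 animal (adjusted p up to 0.0949). For FGF21 these were control 31, 32, 33 and 35, FGF21 36, 37, 39 and 40, and aFGFR1/KLB 41 to 44. For the antibody they were every control, FGF21 39 and 40, and every antibody animal. Gsk3b, the glycogen synthase kinase, fell by 0.23 with FGF21 (0.0303), and that call ended without control 31, 32 or 35 or FGF21 37, 39 or 40 (up to 0.0804). Of the 5 other testable probe sets of Gsk3b, 4 did not pass.

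Errfi1 encodes MIG6, an inhibitor of the kinases of the EGF receptor family, and it is induced by growth factor signalling as well as by glucocorticoids. Its log2 intensity in control animals 31 to 35 was 7.26, 7.82, 7.52, 8.36 and 7.51. In FGF21 animals 36 to 40 it was 7.91, 8.34, 8.60, 8.80 and 8.12. In antibody animals 41 to 45 it was 8.31, 8.20, 7.94, 8.38 and 8.45. Control 34 reached the treated range, and the other 4 controls lay below every treated sample.

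The Errfi1 mean differed by 0.66 ± 0.20 with FGF21 (1.58-fold; CI 0.23 to 1.08; limma adjusted p = 0.064) and by 0.56 ± 0.20 with the antibody (1.48-fold; CI 0.14 to 0.98; 0.122), so neither passed. Without control 34 both passed, at 0.82 (limma adjusted p = 0.00532) and 0.73 (0.0168), where 15.9% and 8.65% of all genes passed. Without FGF21 36 the FGF21 difference passed at 0.77 (0.0306), where 7.42% of all genes passed. No other fit that left out 1 animal passed for Errfi1, with limma adjusted p up to 0.157 with FGF21 and 0.25 with the antibody. The second testable Errfi1 probe set differed by 0.15 with FGF21 and 0.13 with the antibody and did not pass (limma adjusted p = 0.411 and 0.515). The antibody and FGF21 groups differed by -0.10 (CI -0.52 to 0.33; 0.849). Of 12 EGF receptor family genes and ligands, 7 could be tested and 0 passed in any comparison by limma (1, 3 and 1 at an unadjusted p under 0.05, where 20.4%, 19.4% and 13.5% of all genes were marked), with median differences of -0.11 and -0.18 against control.

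**Figure D3:**
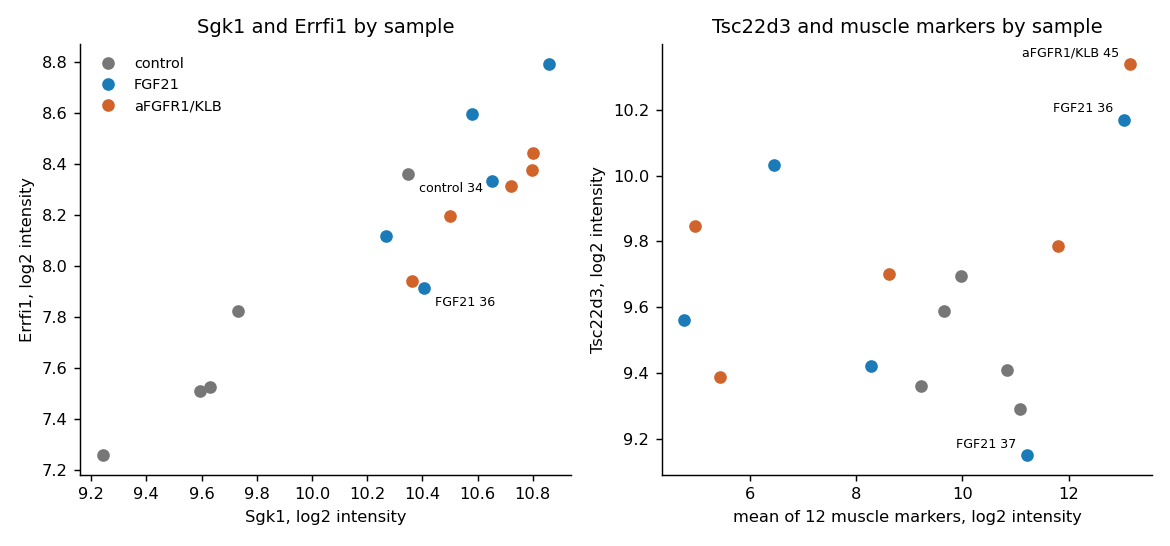
Left, log2 intensity of Errfi1 against that of Sgk1, and right, log2 intensity of Tsc22d3 against the mean log2 intensity of 12 skeletal muscle markers, with a point per animal coloured by group (n = 15). Control 34 lies with the treated samples for Sgk1 and Errfi1. The highest Tsc22d3 values belong to FGF21 36 and aFGFR1/KLB 45, the samples with the most muscle marker signal, while FGF21 37 has the lowest. Tsc22d3 and the muscle marker mean had a Pearson r of 0.20 over all 15 samples.

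Sgk1 and Errfi1 moved together from animal to animal as well as between groups. Their Pearson r over the 15 samples was 0.93 (Spearman rho 0.88), it was 0.93 after group means were removed, and it was 0.86 without the 2 samples farthest from the median of Sgk1. Without control 34 and FGF21 36 it was 0.95. Among the 21 pairs of members this was the highest r. The next were Nr3c1 with Sgk1 at 0.73 and Nr3c1 with Errfi1 at 0.70, but these fell to 0.21 and 0.34 once group means were removed. Errfi1, like Sgk1, followed the endothelial marker mean (Pearson r 0.79, Spearman rho 0.77, 0.65 after group means were removed), and the part of endothelial RNA in this pair was not tested. The points of all such correlations share the arrays and their normalisation.

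Fkbp5 encodes FKBP51, a co-chaperone that lowers the hormone affinity of the receptor and is induced by it, which makes it a standard read-out of receptor activity. Its log2 intensity in control animals 31 to 35 was 6.65, 6.72, 7.08, 7.77 and 7.50. In FGF21 animals 36 to 40 it was 8.55, 7.49, 7.93, 7.94 and 8.08. In antibody animals 41 to 45 it was 7.44, 7.15, 7.64, 6.65 and 8.06. The FGF21 samples lay above every control except that animal 37 fell below controls 34 and 35, and the antibody samples spanned the whole control range.

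The Fkbp5 difference was 0.85 ± 0.27 with FGF21 (1.81-fold; CI 0.27 to 1.44; limma adjusted p = 0.0794) and 0.24 ± 0.27 with the antibody (0.692). The antibody mean was lower than that of FGF21 by a log2 difference of -0.61 (CI -1.19 to -0.03), whose p of 0.0413 became 0.356 after adjustment in limma, and the exact two-sided permutation test gave 0.0794. The second testable Fkbp5 probe set was dim, with a log2 mean of 5.11 beside the filter of 5.06. It differed by 0.15 with FGF21, 0.15 with the antibody and 0.0038 between agonists. None of these passed (limma adjusted p over all probe sets 0.411, 0.401 and 0.989). On the probe set read, Fkbp5 rose with the macrophage marker mean across the 15 samples (Pearson r 0.72, Spearman rho 0.79, 0.70 after group means were removed). With the macrophage and muscle marker means in the model, the FGF21 difference was 0.72 and passed (limma adjusted p = 0.0233). Without control 34 it was 1.01 and passed (0.022), and without both control 34 and FGF21 36 it was 0.87 and passed (0.0404). The shares of all genes that passed in these fits were 9.44%, 15.9% and 16.2%, against 6.32% in the main fit. Of the 15 fits that left out 1 animal, only that without control 34 passed for Fkbp5 with FGF21. The differences in those 15 fits were 0.72 to 1.01, with limma adjusted p up to 0.196.

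Tsc22d3 encodes GILZ, a leucine zipper protein known for carrying anti-inflammatory effects of glucocorticoids, and Zbtb16 encodes the zinc finger repressor PLZF, which glucocorticoids induce in many tissues. Neither passed in any comparison. Tsc22d3 was 9.29 to 9.70 in controls, 9.15 to 10.17 with FGF21 and 9.39 to 10.34 with the antibody. The FGF21 range enclosed that of the controls, and 4 of 5 antibody samples lay above every control. The differences were 0.20 ± 0.19 with FGF21 (limma adjusted p = 0.632) and 0.34 ± 0.19 with the antibody (0.364). The related genes Tsc22d1, Tsc22d2 and Tsc22d4 were all tested and 0 passed in any comparison by limma (2, 0 and 0 at an unadjusted p under 0.05).

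Zbtb16 ranged from 7.50 to 8.72 in controls, from 7.56 to 8.85 with FGF21 and from 7.27 to 8.41 with the antibody, nearly the same span in each group. The differences were 0.18 ± 0.26 (limma adjusted p = 0.765) and -0.05 ± 0.26 (0.951). The highest Fkbp5, Tsc22d3 and Zbtb16 values of the FGF21 group were all in animal 36, and those of the antibody group all in animal 45. These 2 animals also had the most skeletal muscle marker signal of their groups. FGF21 animal 37, with the next most muscle marker signal of its group, had its lowest Fkbp5 and Tsc22d3. Over the 15 samples the Pearson r with the muscle marker mean was 0.24 for Fkbp5, 0.20 for Tsc22d3 and 0.43 for Zbtb16. Spearman rho was 0.16, 0.14 and 0.34, and r was 0.48, 0.34 and 0.48 after group means were removed. Tsc22d3 rose with the macrophage marker mean (Pearson r 0.59, Spearman rho 0.63, 0.68 after group means were removed), while Hsd11b1 ran against it (-0.51, -0.48 and -0.71). The part of macrophage and muscle RNA in these values was not tested further than by the model with both marker means, in which Tsc22d3 differed by 0.08 with FGF21 and by 0.38 with the antibody (limma adjusted p = 0.0915).

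Around the receptor protein, a list of 12 partners and relatives had 9 genes bright enough to test. Of these, 2 rose and 1 fell with FGF21 and 1 rose and 1 fell with the antibody, where 6.32% and 5.18% of all genes passed. The fall was in Nr3c2, the mineralocorticoid receptor, a close relative of Nr3c1 that binds corticosterone with higher affinity. Its log2 intensity in control animals 31 to 35 was 7.22, 7.76, 7.74, 7.08 and 7.27. It was 6.42 to 6.78 with FGF21 and 6.67 to 7.02 with the antibody, so every treated sample lay below every control. Nr3c2 fell by 0.80 ± 0.13 on the log2 scale with FGF21 (1.74-fold; limma adjusted p = 0.00252) and by 0.51 ± 0.13 with the antibody (0.034). The antibody call ended without control 32 or 33 or without antibody animal 41, 42, 43 or 44 (adjusted p up to 0.0885).

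Of the chaperones that hold the receptor ready for hormone, Hspa8 rose by 0.24 (limma adjusted p = 0.0389) and Dnaja1, its HSP40 partner, by 0.43 (0.0486) with FGF21. Hsp90aa1, the inducible HSP90, rose by 0.45 with the antibody (0.0241). On other probe sets with FGF21, Hspa8 passed at 0.43 (limma adjusted p over all probe sets 0.0212) and 0.37 (0.0125) but not at 0.83 (0.114). Dnaja1 passed there at 0.36 (0.0278) but not at 0.48 (0.102). All 3 calls were fragile when 1 animal was left out. That of Hspa8 ended without control 31, 32, 33 or 35, FGF21 36, 38, 39 or 40, or antibody 42 or 44 (adjusted p up to 0.11). That of Dnaja1 ended in 12 fits and held without control 34, FGF21 36 or antibody 42 (up to 0.114). That of Hsp90aa1 ended without control 32 or 33 or antibody 41, 42 or 43 (up to 0.0716), and 2 of 3 other testable probe sets of Hsp90aa1 did not pass. Fkbp4, the co-chaperone that competes with FKBP51, differed by -0.19 with FGF21 and -0.03 with the antibody.

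Among 12 coregulators, 10 were tested and only Med1, a Mediator subunit that nuclear receptors bind, passed against control, where 6.32% and 5.18% of all genes passed. Med1 differed by 0.25 with FGF21 (limma adjusted p = 0.0334) and 0.30 with the antibody (0.016). The FGF21 call ended without control 31, 32, 33 or 35 or FGF21 37, 38, 39 or 40 (up to 0.0878). Both Med1 calls ended when the gene was read as the mean of its probe sets (adjusted p = 0.594 and 0.395).

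Other textbook targets of the receptor were taken from a list of 40 genes that glucocorticoids induce in one tissue or another, all of them bright enough to test. With FGF21, 9 rose and 2 fell, where 6.32% of all genes passed. With the antibody, 6 rose and 1 fell, where 5.18% passed. Between the agonists limma passed 0 of the 40, and 8 were below 0.05 before adjustment, where 13.5% of all genes were. The list's median log2 difference was 0.19 with FGF21 and 0.20 with the antibody, beside -0.02 over all genes in both. With arrays centred on ribosomal protein genes 5 passed with FGF21, all upward, where 1.62% of all genes passed. Without control 34 the antibody count was 11, where 8.65% of all genes passed. Many of these genes answer to other signals too. The list was chosen with earlier results of these data known, so its counts and medians beside those of all genes are a description and not a test.

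**Figure D4:**
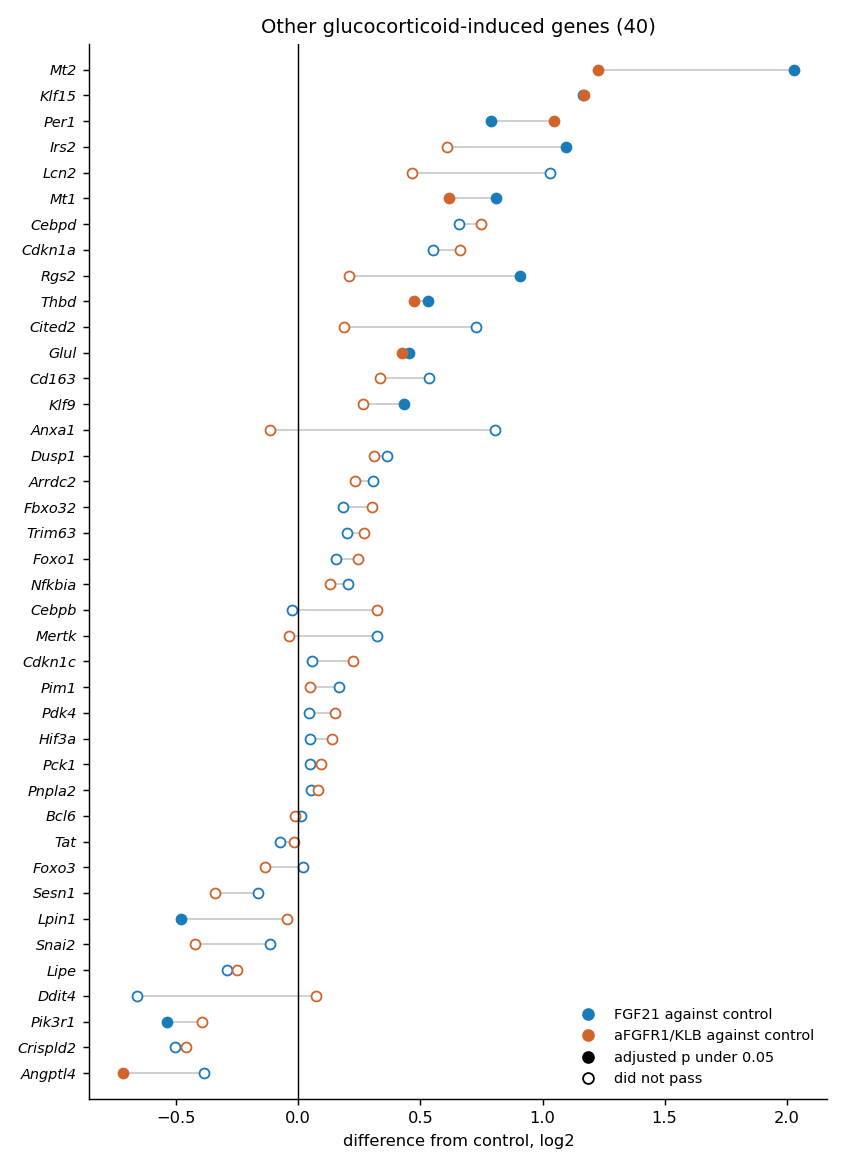
Log2 difference from the same 5 controls for each of the 40 other glucocorticoid-induced genes, with a point for FGF21 and a point for the antibody joined by a line, filled where the adjusted p was under 0.05. Mt2 lies farthest out at 2.03 with FGF21 and 1.23 with the antibody, both points of Klf15 lie at 1.17, and most points of the list are open.

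Mt2 and Mt1 encode metallothioneins, small metal-binding proteins induced by glucocorticoids and by metals. The log2 intensity of Mt2 was 9.60 to 9.92 in controls, 11.37 to 12.18 with FGF21 and 10.63 to 11.55 with the antibody, with no overlap of treated and control samples. Mt2 rose by 2.03 ± 0.17 with FGF21 (limma adjusted p = 1.15e-05) and by 1.23 ± 0.17 with the antibody (0.00142). The agonists differed by -0.80, which missed the threshold (0.0558). Mt1 rose by 0.81 (0.000144) and 0.62 (0.00162), while its other testable probe set did not pass, at 0.48 and 0.50.

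Klf15, a zinc finger factor of fasting metabolism that the receptor induces directly, was 7.52 to 8.10 in controls, 8.68 to 9.49 with FGF21 and 8.84 to 9.35 with the antibody. It rose by 1.17 ± 0.16 in both comparisons (limma adjusted p = 0.000868 and 0.00117), again with no overlap. Per1, a clock gene with a glucocorticoid response element, was 7.33 to 7.93 in controls, 7.93 to 9.12 with FGF21 and 8.38 to 8.98 with the antibody. It rose by 0.79 ± 0.19 with FGF21 (0.0265) and by 1.05 ± 0.19 with the antibody (0.00789). Its FGF21 call ended without control 31, 32 or 33 or FGF21 38, 39 or 40 (up to 0.0709).

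Irs2, an adaptor of the insulin receptor, rose by 1.10 ± 0.17 with FGF21 (limma adjusted p = 0.00187), and its antibody difference of 0.61 had an adjusted p of 0.0501. Lpin1, a phosphatidate phosphatase that glucocorticoids raise in adipocytes, fell by 0.48 with FGF21 (0.0063) and differed by -0.05 with the antibody. The antibody against FGF21 difference of Lpin1 was 0.44, which missed the threshold (limma adjusted p = 0.0522). The remaining genes of the list that passed were named after their values were seen. Glul, glutamine synthetase, rose by 0.45 (0.0063) and 0.42 (0.0124), and Thbd, thrombomodulin, by 0.53 (0.00892) and 0.47 (0.0199). With FGF21, Rgs2 rose by 0.91 (0.025), Klf9 rose by 0.43 (0.031) and Pik3r1 fell by 0.54 (0.0323), and with the antibody Angptl4, an inhibitor of lipoprotein lipase, fell by 0.72 (0.0186). Klf9 differed by 0.26 with the antibody (0.199), although 4 of its other 5 testable probe sets passed there, at 0.37 to 0.57. The same 4 passed with FGF21 as well, at 0.43 to 0.58 (limma adjusted p over all probe sets up to 0.0104). With FGF21, 1 of 2 other testable probe sets of Rgs2 and 2 of 3 of Pik3r1 did not pass. With the antibody, 1 of those 3 of Pik3r1 passed, at -0.90 (0.0178).

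Some of these calls ended when 1 animal was left out. This was so for Rgs2 (control 31, 32 or 33, FGF21 37, 39 or 40; limma adjusted p up to 0.0722), Klf9 (control 32 or 33, FGF21 36, 39 or 40; up to 0.0858) and Pik3r1 (control 31 or 35, FGF21 37 or 38; up to 0.0817). It was also so for Angptl4 (control 32 or 33, antibody 44; up to 0.0528) and for Thbd with the antibody (control 32, antibody 41; up to 0.0551).

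**Figure D5:**
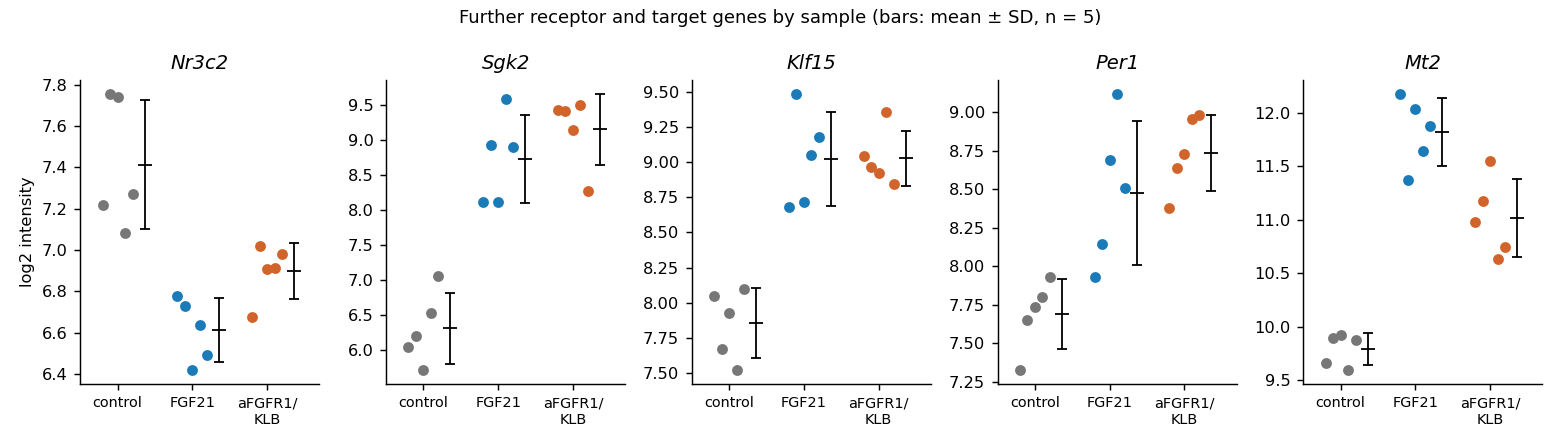
Log2 intensity of the mineralocorticoid receptor gene Nr3c2, the paralog Sgk2 and the target genes Klf15, Per1 and Mt2 in each of the 15 samples, with a point per animal and beside it the group mean with an error bar of 1 SD (n = 5). Nr3c2 is lower in every treated sample than in every control, and Sgk2, Klf15 and Mt2 are higher in every treated sample.

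Genes known to be repressed by the receptor, cytokines and adhesion molecules of inflammation, gave 9 testable genes of 13. By limma, 0 passed in any comparison (1, 0 and 1 at an unadjusted p under 0.05), and the median differences were -0.01 with FGF21 and 0.00 with the antibody. Among those of the 40 induced genes that did not pass, Dusp1, a MAP kinase phosphatase, differed by 0.36 and 0.31. Cdkn1a, the cell cycle inhibitor p21, differed by 0.55 and 0.66 (limma adjusted p 0.0631 with the antibody). Others without a call went down, and the lowest FGF21 difference of the list, -0.66, was in such a gene. Of the 40, 30 had the higher mean with FGF21 and 28 with the antibody, where 45.5% and 45.1% of all genes had.

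The genes whose pattern was most like that of each member were taken as the 2 with the highest Pearson r over the 15 samples among all genes tested, leaving out predicted genes with clone-like symbols. For Nr3c1 they were Spred2 (r 0.91, 0.87 after group means were removed) and Kitl (0.90 and 0.72). For Sgk1 they were Errfi1 (0.93 and 0.93) and Med1 (0.91 and 0.69), and for Errfi1 they were Sgk1 and Fbxl7 (0.87 and 0.76). Spred2, an inhibitor of the RAS to ERK pathway, rose by 1.06 with FGF21 (limma adjusted p = 3.81e-05) and by 0.80 with the antibody (0.00079). For Fkbp5 they were Pprc1 (0.90 and 0.82) and C9orf72 (0.89 and 0.83), and for Tsc22d3 Got2 (0.86) and Rnf169 (0.85). For Hsd11b1 they were Stac (0.88) and Rbpms (0.88, and 0.68 without the 2 samples farthest from the median of Hsd11b1). Stac was dim, with group means of 5.03 to 5.10 beside the filter of 5.06. Zbtb16 had the weakest neighbours, Podn at 0.73 and Crtac1 at 0.71. Without the 2 samples farthest from the member's median, r was 0.71 for Got2, 0.74 for Rnf169, 0.61 for Podn and 0.51 for Crtac1. For the pairs other than these and Rbpms it was 0.83 to 0.89.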

How the data were processed

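The authors deposited 1 intensity per probe set and array for all 15 samples, on a linear scale and processed with RMA per the submitters' processing notes. Its version and any later step are not given in the sources used here. Array medians lay between 50.6 and 52.1. Arrays have no read depth, so their number limits the precision. Log2 of these values was used without renormalisation. Of 45101 probe sets, 34958 had 1 symbol, 932 had several, and the 9211 without an entry stay unnamed. Genes had to exceed a log2 mean of 5.06, the 40th percentile over probe sets, which kept 13174 and left out 5020. A one-way model on all 15 samples (12 residual degrees of freedom) was fitted with limma 3.58.1 in R 4.3.3, two-sided, and tested on simulated data. P-values were adjusted by Benjamini and Hochberg over all genes tested within each comparison. An exact permutation test over the 252 splits of 10 samples was run for each member; its smallest p is 0.00794. No replicate number occurs in more than 1 group, so nothing was paired, and the labels give no batch.

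The members and gene lists were chosen with earlier results of these data known. Named were the members, up to 6 genes per list with the smallest p among those that passed, the 2 genes most like each member, and Ucp1, Cidea and Adipoq. Genes outside that rule were named after their values were seen: Glul, Thbd, Rgs2, Klf9, Pik3r1, Angptl4, and those named without a call (H6pd, Hsd11b2, Sgk3, Fkbp4, Dusp1, Cdkn1a and the Tsc22d genes). Alternatives were another filter, scaling, pseudocount or probe set, array weights, marker covariates and samples left out.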

Additional observations from a re-analysis of the deposited data

How the results depend on the processing

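Sgk1 passed in both comparisons with control under each alternative fit run on its probe set. The other counts moved with the settings, and the cause was not tested unless fewer samples or genes entered. No paired analysis was possible because replicate numbers do not repeat between groups.

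Genes called with FGF21 against control (833) numbered 538 with arrays centred on their median (224 higher, 314 lower), 213 centred on ribosomal protein genes (138 and 75), 2855 with array weights, 322 with only the 10 samples compared, 1324 with the macrophage marker mean as covariate and 2138 without control 34 and FGF21 36. For the antibody (682) the counts were 419 (252 higher, 167 lower), 181 (149 and 32), 2307 with array weights, 1692 with the macrophage mean, 1663 with macrophage and muscle means and 1631 without those samples. Between agonists (49) they were 77 with the stricter filter, 30 with quantile normalisation repeated, 26 and 8 with the 2 centrings, 81 with a robust trend, 832 with array weights, 87 with 10 samples, 146 and 209 with the covariates and 241 without those samples.

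Members called with FGF21 numbered 1, with Nr3c1 the call lost, under quantile normalisation repeated (5.03% of all genes passed), median centring (4.08%), ribosomal centring (1.62%) or 10 samples (2.44%). They numbered 4 with array weights (21.7%) or without control 34 and FGF21 36 (16.2%). With the antibody they numbered 2 with the stricter filter (7.59% of all genes passed), 10 samples (5.06%) or the macrophage mean (12.8%). They numbered 3 with array weights (17.5%) or without those samples (12.4%).

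Of the 40 other induced genes, with FGF21 5 passed on ribosomal centring, 19 with array weights and 7 with 10 samples. The shares of all genes that passed there were 1.62%, 21.7% and 2.44%. With the antibody 11 passed on the mean of probe sets, 16 with array weights, 12 with the macrophage mean, 14 with both means and 12 without those samples. Of all genes, 4.54%, 17.5%, 12.8%, 12.6% and 12.4% passed in these fits. Between agonists 2 passed with the stricter filter (0.767% of all genes), a robust trend (0.615%) or both means (1.59%), and 4 with array weights (6.32%). The count was 1 with 10 samples (0.66%), the macrophage mean (1.11%), a pseudocount of 16 (0.554%) or without those samples (1.83%).

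Leaving out 1 sample at a time gave 463 to 2097, 336 to 1140 and 10 to 251 genes, 1 to 4, 1 to 3 and 0 to 0 members, and 8 to 14, 5 to 11 and 0 to 2 of the 40 genes, in the same order of comparisons. The highest FGF21 count came without control 34. It turned the sign of antibody differences for Hsd11b1 (-0.20 to 0.087) and Zbtb16 (-0.16 to 0.14), and, antibody against FGF21, for Nr3c1 (-0.10 to 0.0026) and Errfi1 (-0.21 to 0.015).

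Other signs that turned, all of values without a call except Nr3c1 with FGF21: Nr3c1 between agonists was 0.014 on median and 0.055 on ribosomal centring. Hsd11b1 with the antibody was 0.068 on ribosomal centring. Zbtb16 with the antibody was 0.056 there, 0.0016 on the mean of probe sets and 0.052 with both covariates, and with FGF21 it was -0.24 with array weights and -0.11 without the 2 samples. On other probe sets Nr3c1 was -0.071 with FGF21, -0.078 and -0.079 with the antibody and 0.0089 between agonists, Fkbp5 0.0038 between agonists, Tsc22d3 -0.082 with FGF21, and Zbtb16 0.049 and 0.0019 with the antibody.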
